A study of Mus musculus with 12 samples.

Results

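The cornified envelope genes of the epidermal differentiation complex were followed in RNA of mouse skin wounds treated with capsaicin (CAP), the pungent compound of chilli peppers. Members were the genes named Lce or Sprr with a number, together with Flg, Flg2, Hrnr, Rptn, Lor, Ivl, Crct1, Kprp, Crnn, Tchh and Tchhl1, which gave 49 of the 55487 genes in the tables. The choice used names only. All 49 members had a mean of at least 0.3 TPM, the length-scaled share of a library's transcripts, in at least 1 group, so 0 members were left out for low values. They were split by family into 14 Lce1 genes, 6 Lce3 genes, Lce6a, 2 Sprr1 genes, 13 Sprr2 genes, Sprr3 with Sprr4, 7 S100-fused genes (Flg, Flg2, Hrnr, Rptn, Crnn, Tchh and Tchhl1) and 4 single genes (Lor, Ivl, Crct1 and Kprp).

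Male C57BL/6JNarl mice aged 6 weeks received 2 full-thickness punch wounds of 6 mm on the back, and the labels name no introduced allele. Pluronic F127 gel, a polymer carrier, was put on the wounds daily, either alone (sham group) or holding 10 µM CAP, so that all 4 groups were wounded and received gel. RNA of the wounds with surrounding skin was sequenced at day 3 and day 6, giving 3 libraries each for sham at day 3, CAP at day 3, sham at day 6 and CAP at day 6. Unwounded skin was not analysed here. Since each mouse carried more than 1 wound and the labels do not tie libraries to mice, p-values measure only the spread between these libraries.

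Keratinocytes leave the basal layer of the epidermis, change from Krt5 and Krt14 to Krt1 and Krt10, and end as dead, flattened cells in which a protein shell, the cornified envelope, has replaced the plasma membrane. Loricrin (Lor), involucrin (Ivl), the small proline-rich proteins (Sprr) and the late cornified envelope proteins (Lce) are cross-linked into that shell by transglutaminases, while filaggrin (Flg) bundles keratin filaments and is later broken down to amino acids that hold water. The genes sit side by side in 1 cluster, and skin under stress or repair is known to use Sprr and Lce3 genes more than resting skin does.

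The members lay on mouse chromosome 3 between 92080271 and 93471980 (GRCm38), a stretch of 1.39 Mb, and 47 of them were annotated as protein-coding. Sprr2c-ps was annotated as a processed pseudogene and Sprr2g as a polymorphic pseudogene. Together the members held between 1.06% and 2.89% of the TPM of a library. The tissue label was borne out by keratinocyte genes: Krt14, of the basal layer, had between 6740 and 20003 TPM, and Krt10, of the layers above it, between 4187 and 40801 TPM. CAP replicate 2 at day 6 had the highest Krt10 value and the fewest genes at 0.3 TPM or more (18533, against 18768 to 19325 in the other 11 libraries). Its 10 most abundant genes held 14.1% of its TPM, against 8.27% to 11.3% in the others.

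TPM is scaled by transcript length, so levels of members were set side by side. Sequence shared within the Sprr2, Lce1 and Lce3 families limits this for their single genes. Lor had the highest mean over the 12 libraries, 2422 TPM, and Sprr2c-ps the lowest, 0.385 TPM. The 14 Lce1 genes had means between 92.5 and 513 TPM, and the 6 Lce3 genes, whose products are known for their part in repair, between 21.8 and 71.7 TPM. Over the 12 libraries the highest value was 4.69 times the lowest for the median Lce1 gene and 11.3 times for the median Sprr2 gene, so the Sprr2 genes spread more widely. The order of replicates was opposite for the Lce1 and the Lce3 and Sprr2 genes in sham wounds of day 3 but not in every group. At day 3, sham replicate 1 was the lowest of its group in 14 of 14 Lce1 genes and the highest in 6 of 6 Lce3 genes and 11 of 13 Sprr2 genes. Sham replicate 2 of that day was the highest in 13 of 14 Lce1 genes and the lowest in 6 of 6 Lce3 genes and 9 of 13 Sprr2 genes. At day 6, by contrast, sham replicate 2 was the highest in 13 of 14 Lce1, 6 of 6 Lce3 and 11 of 13 Sprr2 genes.

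**Figure D1:**
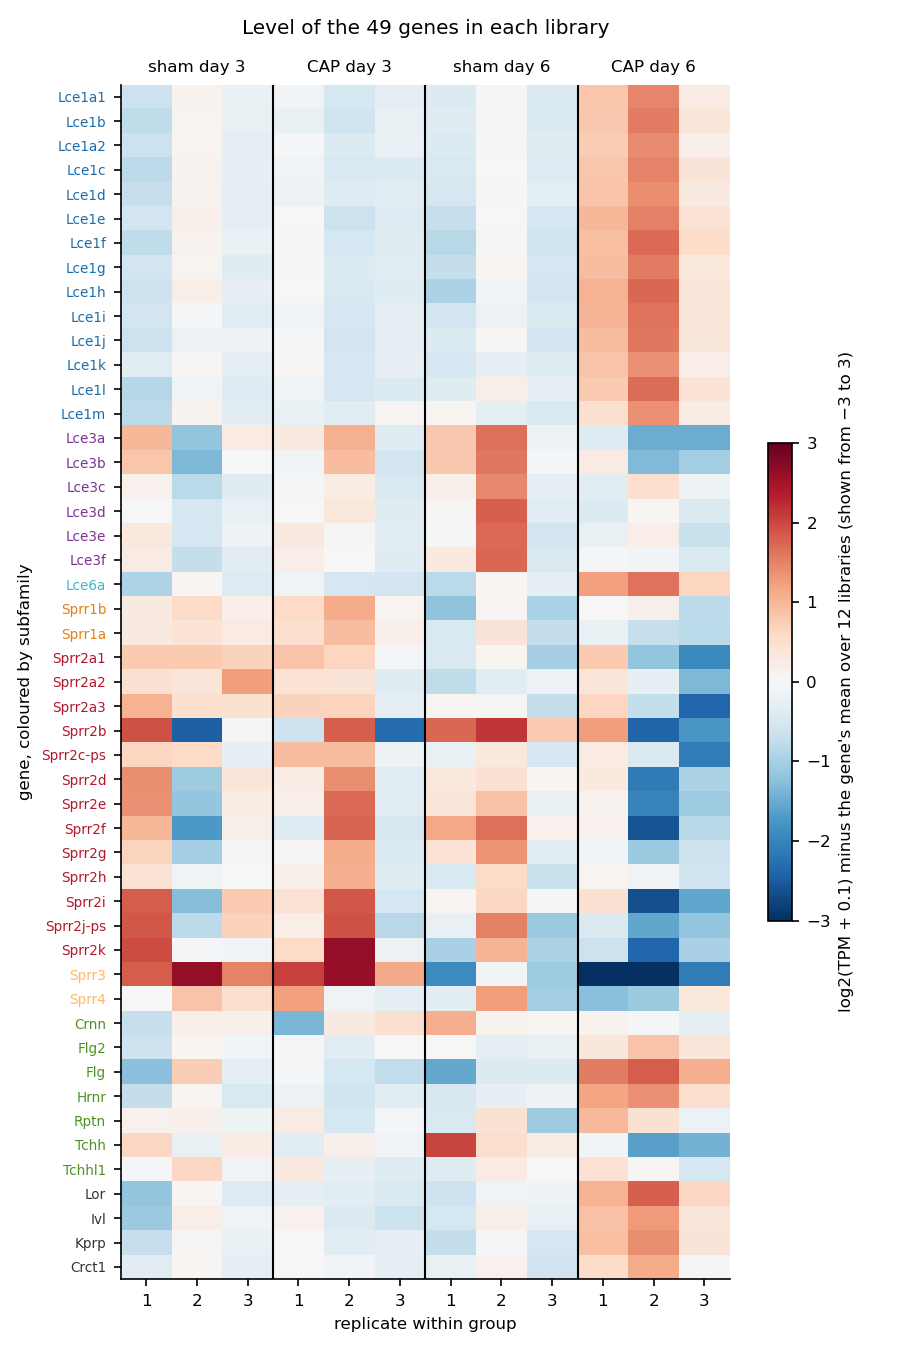
Heat map of the 49 genes (rows, grouped and coloured by family) in the 12 libraries (columns, 3 replicates per group). Colour gives log2(TPM + 0.1) minus the mean of that gene over the 12 libraries, from blue (−3) to red (3). The Lce1 rows, Lor, Kprp, Hrnr and Flg are red in the 3 CAP libraries of day 6, while Lce3 and Sprr2 rows change colour among replicates of 1 group.

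The first comparison asked whether members differed between CAP and sham wounds at day 3. By limma on log2(TPM + 0.1), where a call needed a 2-fold difference and p under 0.05 before adjustment, 0 of 49 members were higher and 0 were lower, and 0 had an unadjusted p under 0.05. Among all genes tested, 0.426% were higher and 1.16% lower past the same threshold. The log2 differences of the members lay between −0.54 and 0.47, with a median of 0.02, against −0.05 over all genes tested, and their standard errors lay between 0.13 and 1.33.

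Lor, the most abundant shell protein of the epidermis, had 912, 2132 and 1576 TPM in the sham libraries of day 3 and 1701, 1616 and 1522 TPM in the CAP libraries. The CAP libraries all lay inside the sham range. Flg had 326, 1290 and 638 TPM in sham and 759, 534 and 465 TPM in CAP at day 3. The groups overlapped, and the lowest and the highest values were both sham. The summed Lce1 level was 3116 ± 817 TPM (SD, n = 3) in sham and 3087 ± 398 TPM in CAP, and each Lce1 gene differed by 0.19 or less on the log2 scale.

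At day 6 the picture differed. Of the 47 members tested, 19 were higher and 7 were lower in CAP wounds than in sham wounds past the threshold, against 1.46% higher and 2.34% lower among all genes tested. The higher members were 13 of 14 Lce1 genes, Lce6a, Flg, Hrnr, Lor, Ivl and Kprp. The lower members were Lce3a, Lce3b, Sprr2b, Sprr2e, Sprr2f, Sprr2g and Tchh. None of the 47 reached an adjusted p under 0.05 by limma, the lowest being 0.205, while 29 had an unadjusted p under 0.05, as did 19.2% of all genes tested. The median over the members was 0.50 on the log2 scale. Over all genes tested it was −0.12, and −0.01 after median-ratio scaling, which turned the split of all genes past the threshold from 268 higher and 429 lower to 393 higher and 298 lower. With that scaling 20 members were higher and 6 lower, and none had an adjusted p under 0.05 by limma.

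The count of higher members rested in part on CAP replicate 2, without which 10 members were higher and 3 lower. Those 10 were Lor, Kprp, Flg, Hrnr, Lce6a, Lce1e, Lce1f, Lce1g, Lce1h and Lce1i, and the same 10 passed whichever of the 6 libraries was left out. Among the lower members, Lce3a and Tchh passed without each library in turn. The number lower fell to 2 when either sham replicate 1 or sham replicate 2 was dropped and to 3 when CAP replicate 3 was, and it was 11 on dropping CAP replicate 1. With CAP replicate 3 left out, 19 members, all higher in CAP, had an adjusted p under 0.05 by limma, the lowest being 0.0238. Calls rose over the whole table in that setting, in which 532 genes were higher and 967 lower at an adjusted p under 0.05, or 8.18% of all genes tested, against 0 with all libraries.

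**Figure D2:**
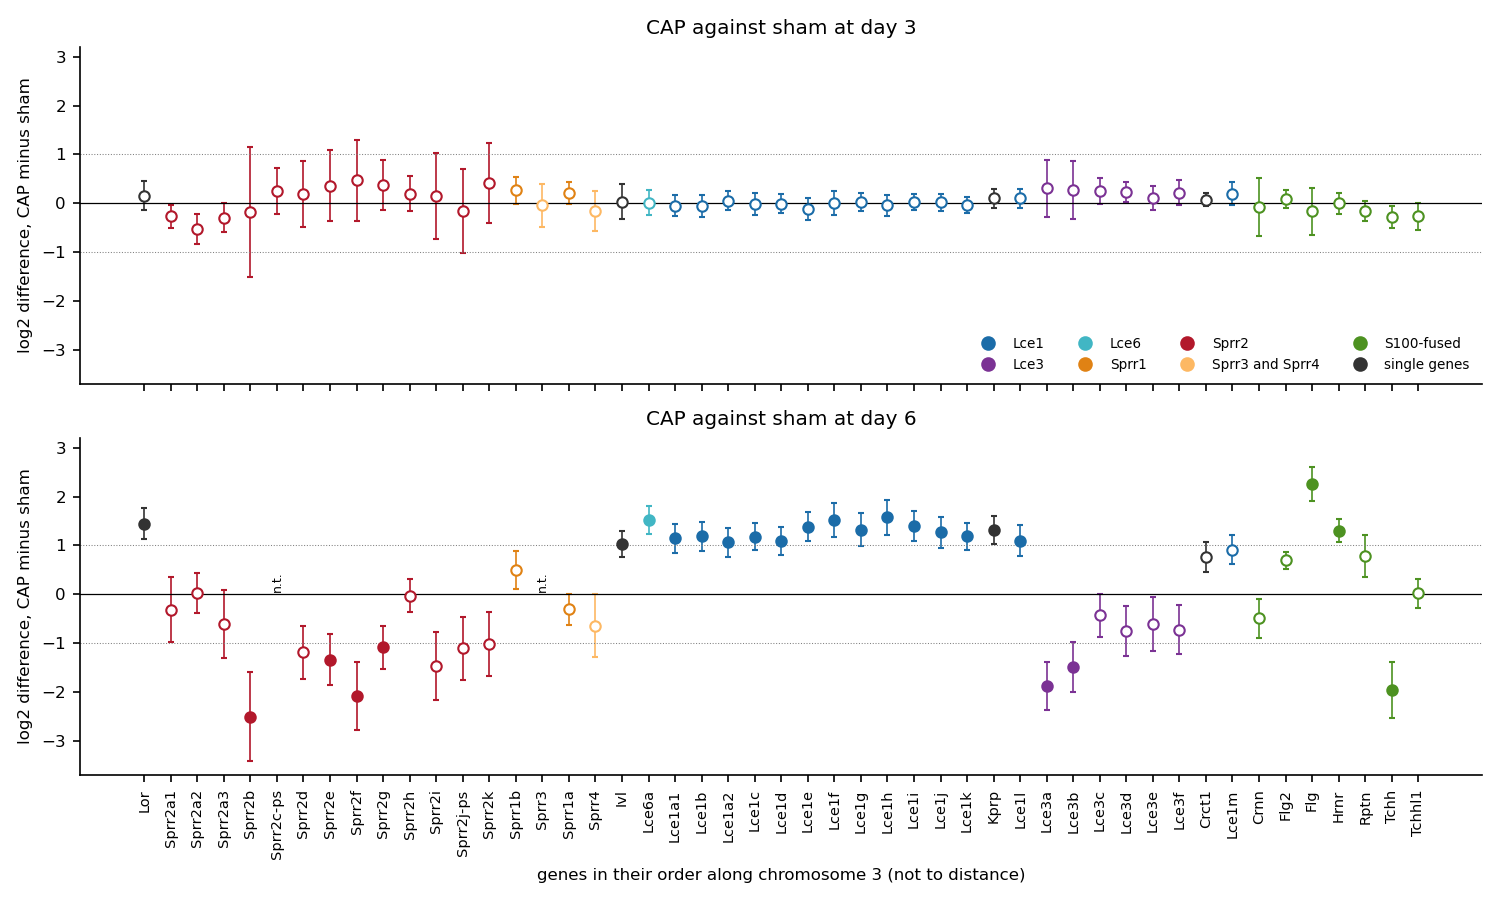
Log2 difference between CAP and sham wounds (CAP minus sham, on log2(TPM + 0.1), bars ± standard error from limma, 3 libraries per group) at day 3 (top) and day 6 (bottom), with the 49 genes in their order along the chromosome and coloured by family. Filled points passed an unadjusted p under 0.05 and 2-fold (dotted lines at −1 and 1), and n.t. marks Sprr2c-ps and Sprr3, not tested at day 6. At day 6 the run from Ivl to Lce1l lies at or above 1, the Lce3 genes next to it lie below 0, and at day 3 all points lie between −0.54 and 0.47.

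Lor had 1341, 1927 and 1844 TPM in the sham libraries of day 6 and 4215, 7095 and 3180 TPM in the CAP libraries. The lowest CAP library was above the highest sham library, and CAP replicate 2 was the highest. The log2 difference was 1.44 ± 0.32 (standard error, limma adjusted p = 0.205), and leaving out 1 library at a time gave between 1.12 and 1.70. Kprp, a keratinocyte proline-rich protein, had 260, 415 and 302 TPM in sham and 798, 1120 and 556 TPM in CAP, again without overlap (log2 difference 1.31 ± 0.28). Ivl, an early scaffold of the envelope, rose from 196 ± 47.9 TPM in sham to 405 ± 125 TPM in CAP (SD, n = 3). Crct1, whose locus lies beyond the Lce3 genes, had 266, 339 and 205 TPM in sham and 454, 664 and 296 TPM in CAP. It did not reach 2-fold (log2 difference 0.76 ± 0.31), and 1 CAP library lay below a sham library.

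Among the S100-fused genes, Flg had the largest positive difference of the 47 members tested. It had 268, 580 and 585 TPM in sham and 2229, 2703 and 1646 TPM in CAP at day 6. All 3 CAP libraries were above all 3 sham libraries, and CAP replicate 2 was the highest. The log2 difference was 2.26 ± 0.34 (limma adjusted p = 0.205), with a range of 1.88 to 2.45 when 1 library was left out. Flg2, a close relative, had 123, 99.8 and 105 TPM in sham and 155, 224 and 158 TPM in CAP, without overlap but under 2-fold (0.69 ± 0.17). The ratio of Flg to Flg2 was 2.17, 5.81 and 5.58 in the sham libraries and 14.4, 12.1 and 10.4 in the CAP libraries of day 6, and the ratios did not overlap between the groups. Since it is made of the values just given for the 2 genes, it is not a separate result.

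Hrnr, hornerin, another filaggrin-type protein of the envelope, had 116, 137 and 146 TPM in sham and 368, 420 and 228 TPM in CAP at day 6, with no overlap (1.30 ± 0.23). Rptn, repetin, had 356, 670 and 233 TPM in sham and 966, 667 and 434 TPM in CAP, and its groups overlapped (0.78 ± 0.43). Crnn and Tchhl1 were low, with means of 0.758 and 2.89 TPM in sham and 0.478 and 2.99 TPM in CAP, and neither passed the threshold.

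Tchh, trichohyalin, is best known from the inner root sheath of the hair follicle, and it fell in CAP wounds by 1.96 on the log2 scale. It had 44.5, 15.7 and 12.7 TPM in sham and 10.3, 3.43 and 4.02 TPM in CAP at day 6. The groups did not overlap, and sham replicate 1 was far above the rest. Without that library the log2 difference was −1.41, and it still passed the threshold. Of 21 measured genes of the inner root sheath and hair cortex, 17 had a mean of at least 0.3 TPM in sham and 5 in CAP at that day, and 7 were listed at 0 in all CAP libraries. Their summed level was between 111 and 196 TPM in sham and between 130 and 204 TPM in CAP. Most of that sum came from Gata3 and Dlx3, which the epidermis also expresses. Together they had between 89.2 and 131 TPM in sham and between 126.5 and 200.1 TPM in CAP. Dlx3 alone had 17.2, 24.1 and 16.7 TPM in sham and 34.9, 52.6 and 27.1 TPM in CAP. Of the 5 genes tested 0 passed the threshold, 3 were positive and 2 negative, and 1 had an unadjusted p under 0.05 by limma. The 15 keratins of the list, set apart after their values were seen, summed to 59.6, 0.389 and 18.1 TPM in sham and 0.115, 0.800 and 0.596 TPM in CAP. They were highest in sham replicate 1, as Tchh was, but sham replicate 2 lay within the CAP range for the keratins and above every CAP library for Tchh. The part of hair follicles in the Tchh result was not tested.

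The Lce1 genes, whose products join the envelope late, all had a positive log2 difference at day 6, from 0.91 for Lce1m to 1.58 for Lce1h, with a median of 1.19. Summed over the 14 genes, the level was 2743, 3620 and 2770 TPM in sham and 6621, 10662 and 4673 TPM in CAP. The highest of the sham sums lay below the lowest of the CAP sums, and CAP replicate 2 was the highest in 14 of 14 genes while CAP replicate 3 was the lowest in 14 of 14. Lce1a1 had 350, 451 and 345 TPM in sham and 834, 1292 and 548 TPM in CAP (log2 difference 1.15 ± 0.30). Lce1c had 300.1, 416 and 316 TPM in sham and 732, 1156 and 543 TPM in CAP (1.18 ± 0.28). Both kept the groups apart and shared the order of the CAP libraries.

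Lce1i had 125, 164 and 136 TPM in sham and 373, 572 and 238 TPM in CAP at day 6 (1.40 ± 0.30). Lce1e had 91.1, 150 and 103 TPM in sham and 295, 425 and 199 TPM in CAP (1.38 ± 0.30). Neither overlapped between the groups. Lce1m is the member set apart: it lies between 93017810 and 93019060, beyond the Lce3 genes, and had 439, 341 and 305 TPM in sham and 578, 1077 and 490 TPM in CAP. The groups did not overlap, but the log2 difference of 0.91 ± 0.30 was under 2-fold. Lce6a, a single gene next to the Lce1 run, had 39.7, 72.1 and 56.4 TPM in sham and 163, 214 and 110 TPM in CAP, without overlap (1.52 ± 0.30).

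The 6 Lce3 genes lie between 92925287 and 92993426, between the Lce1 run and Lce1m, and all had a negative log2 difference at day 6, with a median of −0.74. Lce3a had 30.5, 55.0 and 15.6 TPM in sham and 13.4, 6.20 and 6.21 TPM in CAP. The highest CAP library lay just under the lowest sham library, and the log2 difference was −1.88 ± 0.49 (limma adjusted p = 0.208). Lce3b had 52.7, 90.04 and 29.5 TPM in sham and 35.7, 12.01 and 14.8 TPM in CAP. Its groups overlapped (−1.48 ± 0.51), and it passed without only 2 of the 6 libraries. Lce3c had 72.7, 179 and 54.7 TPM in sham and 52.7, 93.2 and 59.1 TPM in CAP, and Lce3d had 64.1, 216 and 49.9 TPM in sham and 47.4, 64.8 and 47.1 TPM in CAP. Neither passed the threshold, and sham replicate 2 held the highest value in 6 of 6 Lce3 genes. The ratio of the Lce1 sum to the Lce3 sum was 9.51, 4.87 and 14.3 in the sham libraries and 32.2, 44.4 and 27.7 in the CAP libraries of day 6, without overlap. This ratio joins values already given and is not a separate result. The Lce3 sums alone overlapped, at 288, 743 and 193 TPM in sham and 205, 240 and 169 TPM in CAP.

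The Sprr2 genes, cross-bridging proteins of the envelope, had a negative log2 difference at day 6 in 11 of 12 tested, with a median of −1.10. Past the threshold, 4 were lower in CAP and 0 were higher. Sprr2f had 142, 198 and 69.3 TPM in sham and 69.0, 10.4 and 35.7 TPM in CAP, where the highest CAP library lay just under the lowest sham library (−2.08 ± 0.70). Sprr2b had 41.3, 55.5 and 21.7 TPM in sham and 30.2, 2.27 and 3.66 TPM in CAP, with overlap (−2.51 ± 0.91). Sprr2e and Sprr2g fell by 1.34 and 1.09 on the log2 scale, and like Sprr2b each passed without only 2 of the 6 libraries. Sprr2d had 636, 702 and 533 TPM in sham and 631, 119 and 268 TPM in CAP, and did not pass. CAP replicate 1 had the highest value of its group in 13 of 13 Sprr2 genes, and it was 4118 TPM there when the 13 were summed, against 1656 and 1230 TPM in CAP replicates 2 and 3.

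The most abundant Sprr2 genes did not pass. Sprr2a1 had 586, 845 and 405 TPM in sham and 1395, 353 and 211 TPM in CAP at day 6, and the CAP libraries spanned the sham range on both sides. Sprr2a2 had 569, 760 and 853 TPM in sham and 1250, 816 and 381 TPM in CAP, with the same wide spread. These genes overlap on the same strand and share sequence: 96.9% of the 31-base stretches of Sprr2a1 and 97.8% of those of Sprr2a2 occur in other genes, so the split between them is uncertain. The sum of Sprr2a1, Sprr2a2 and Sprr2a3, which does not depend on that split, was 1399 ± 240 TPM in sham and 1521 ± 1105 TPM in CAP (SD, n = 3).

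Sprr1a and Sprr1b, abundant in stressed and healing epidermis, did not pass at day 6. Sprr1a had 1365, 2446 and 1136 TPM in sham and 1607, 1158 and 1063 TPM in CAP. Sprr1b had 610, 1463 and 736 TPM in sham and 1442, 1566 and 818 TPM in CAP. Both overlapped between the groups, with log2 differences of −0.31 ± 0.31 and 0.50 ± 0.38. Sprr4 had 22.6, 66.4 and 13.5 TPM in sham and 11.7, 12.95 and 34.7 TPM in CAP, and Sprr3 had 0.164, 0.836 and 0.372 TPM in sham and was listed at 0, at 0 and at 0.132 TPM in CAP. Sprr3 and Sprr2c-ps had a mean under 0.3 TPM in CAP at day 6 and were not tested.

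**Figure D3:**
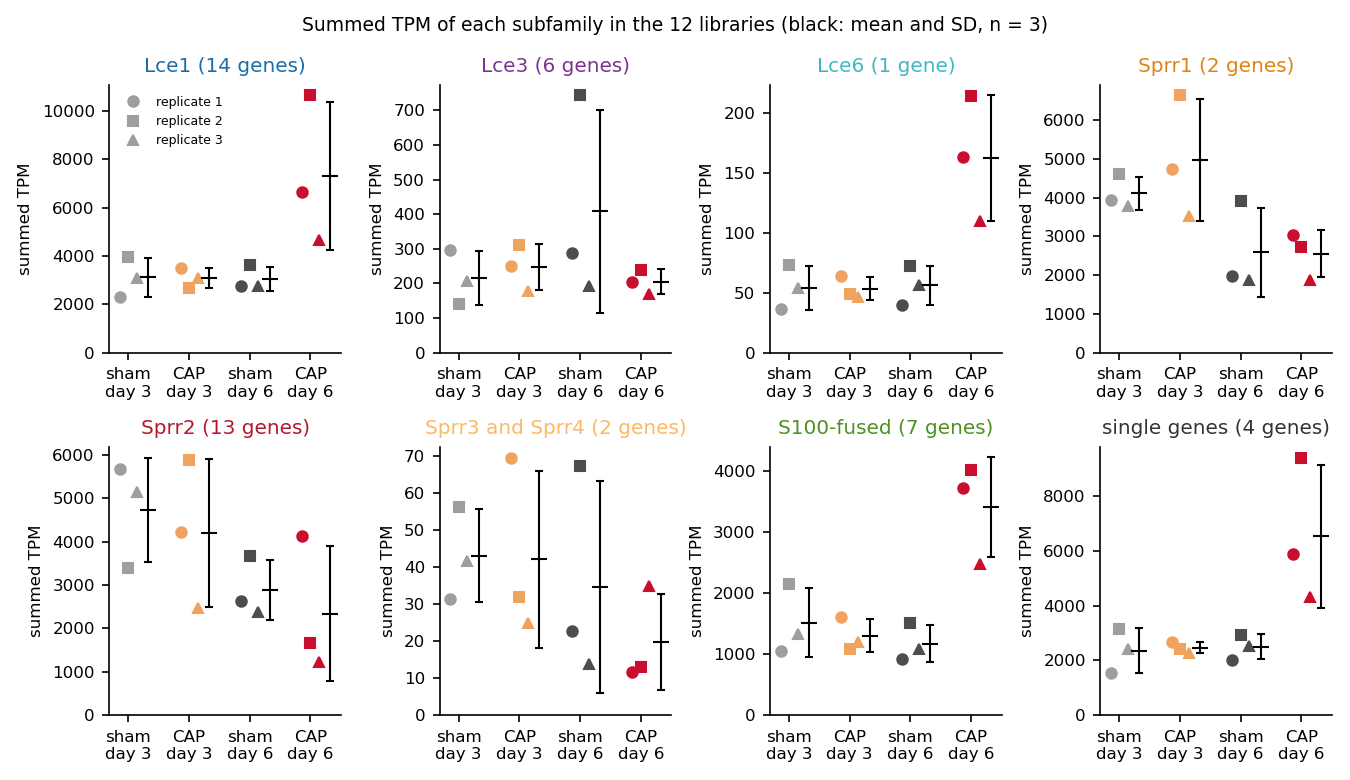
Summed TPM (linear axis from 0) of each family in each of the 12 libraries, with the replicate number as symbol and the mean ± SD (n = 3) in black. The Lce1, Lce6, S100-fused and single genes are above the other groups in CAP wounds of day 6 in all 3 libraries, and the Lce3, Sprr1 and Sprr2 sums overlap between CAP and sham at day 6.

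Promoter sequence was read for the members because the log2 differences at day 6 were mostly of opposite sign in neighbouring families. RefSeq gives a promoter (250 bases before to 50 after the start, GRCm38.p6) for 43 of the 49. Shown are Lor and Flg, 2 Lce1 genes that passed without any 1 library, and the lower genes Lce3a and Sprr2f, 5′ to 3′, with capitals for matches on either strand to TATAAA (the TATA box), to the AP-1 letters TGANTCA or to the run AATAAAA.
Lor (loricrin, chr3:92083093-92083392, minus strand): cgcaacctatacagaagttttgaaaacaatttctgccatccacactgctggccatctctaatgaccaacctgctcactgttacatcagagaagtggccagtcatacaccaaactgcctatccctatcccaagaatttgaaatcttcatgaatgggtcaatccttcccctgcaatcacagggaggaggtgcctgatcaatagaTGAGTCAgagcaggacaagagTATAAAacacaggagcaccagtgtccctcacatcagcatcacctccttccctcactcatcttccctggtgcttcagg
Flg (filaggrin, chr3:93273296-93273595, plus strand): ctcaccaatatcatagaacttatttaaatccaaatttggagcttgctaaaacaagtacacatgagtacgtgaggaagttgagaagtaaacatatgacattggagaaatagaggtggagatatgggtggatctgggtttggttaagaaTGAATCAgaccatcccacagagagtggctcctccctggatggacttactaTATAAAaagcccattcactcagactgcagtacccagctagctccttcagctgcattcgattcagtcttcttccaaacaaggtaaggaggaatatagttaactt
Lce1e (Lce1, chr3:92709025-92709324, minus strand): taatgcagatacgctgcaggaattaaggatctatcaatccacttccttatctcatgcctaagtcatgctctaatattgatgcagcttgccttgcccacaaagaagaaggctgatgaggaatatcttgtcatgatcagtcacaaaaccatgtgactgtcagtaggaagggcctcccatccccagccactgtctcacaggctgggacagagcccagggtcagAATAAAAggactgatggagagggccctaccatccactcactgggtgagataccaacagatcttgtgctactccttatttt
Lce1h (Lce1, chr3:92765016-92765315, minus strand): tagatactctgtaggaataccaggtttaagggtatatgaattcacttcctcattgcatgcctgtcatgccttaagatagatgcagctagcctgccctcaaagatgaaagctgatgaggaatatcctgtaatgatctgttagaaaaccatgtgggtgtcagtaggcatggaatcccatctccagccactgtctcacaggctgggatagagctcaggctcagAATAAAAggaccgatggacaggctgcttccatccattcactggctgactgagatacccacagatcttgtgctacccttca
Lce3a (Lce3, chr3:92926181-92926480, minus strand): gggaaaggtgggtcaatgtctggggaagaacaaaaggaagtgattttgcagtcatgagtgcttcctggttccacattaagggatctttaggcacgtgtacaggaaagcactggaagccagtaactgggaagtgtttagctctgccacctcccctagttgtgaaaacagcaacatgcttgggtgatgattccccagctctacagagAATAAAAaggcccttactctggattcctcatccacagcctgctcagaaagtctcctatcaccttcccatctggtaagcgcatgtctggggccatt
Sprr2f (Sprr2, chr3:92364937-92365236, plus strand): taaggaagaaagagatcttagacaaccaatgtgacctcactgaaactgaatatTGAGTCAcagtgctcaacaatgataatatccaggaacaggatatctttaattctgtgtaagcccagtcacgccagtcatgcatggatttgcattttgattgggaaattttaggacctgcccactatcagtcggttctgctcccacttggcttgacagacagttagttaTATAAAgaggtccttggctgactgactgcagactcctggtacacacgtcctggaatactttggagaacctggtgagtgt

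TGANTCA, the letters bound by AP-1 factors, occurred in 0 of 13 Lce1 and 0 of 6 Lce3 promoters, in 7 of 10 Sprr2, 2 of 2 Sprr1 and 5 of 7 S100-fused promoters, and in those of Lor and Ivl. It occurs in 7.81% of all 32851 promoters in the table. The higher genes Lor and Flg and the lower gene Sprr2f therefore share these letters, and the higher Lce1 and lower Lce3 genes share their absence from the window. The TATA box letters TATAAA occurred in 20 of the 43 members and in 13.6% of all promoters, but in only 2 of 13 Lce1 promoters. Both TGANTCA and TATAAA were absent from the windows of Sprr2a1, Sprr2a2 and Sprr2a3, and those of Sprr2a1 and Sprr2a2 were 100% identical. The start used lay 34727 bases from the 5′ end of the gene for Sprr2a2 and 113 bases for Sprr2a3, so these absences are uncertain. AATAAAA, searched after the sequences had been read and present in no member promoter that holds TATAAA, occurred in 9 of 13 Lce1 promoters, as in Lce1e at position −30, and in 8.39% of all promoters. AACCNGTT, TTCNNNGAA and CACCC, on either strand, occurred in 1, 3 and 22 of the 43 members and in 2.09%, 8.30% and 57.5% of all promoters. In global alignments the Lce1 promoters shared a median of 62.0% identical positions with each other and 48.3% with the Lce3 promoters.

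Change from day 3 to day 6 was compared within each treatment. In sham wounds 0 of 49 members were higher and 4 were lower at day 6 than at day 3, against 2.13% and 1.61% of all genes tested. These were Sprr1b, Sprr2a1, Sprr2a2 and Sprr3. Sprr3, a small proline-rich protein of lining epithelia, had 3.36, 6.04 and 2.65 TPM at day 3 and 0.164, 0.836 and 0.372 TPM at day 6, with no overlap. It fell by 2.99 on the log2 scale (standard error 0.52), and its limma adjusted p of 0.0373, which ranged from 0.0292 to 0.124 over the alternative settings, was the only one under 0.05 among the members. Of all genes tested 2.29% had an adjusted p under 0.05, so 1 of 49 members was near that share. Sprr2a1 had 1389, 1394 and 1293 TPM at day 3 in sham, above all sham values of day 6 (log2 difference −1.21 ± 0.25). Sprr2a2 had 1327, 1251 and 2296 TPM at day 3, again above all sham values of day 6 (−1.12 ± 0.26). Sprr1b had 1702, 2102 and 1583 TPM at day 3, and the same held (−1.04 ± 0.31). For the 14 Lce1 genes the median difference was −0.03, and 0 of 14 had an unadjusted p under 0.05 by limma. The number of members higher was 3 without sham replicate 1 of day 3 and 2 without sham replicate 3 of day 6, and the number lower was 2 without the latter and 6 without sham replicate 2 of day 6.

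Markers of wound-edge keratinocytes also differed between the days in sham wounds. Of 8 such genes 2 were lower at day 6, with sums of 28099 to 31578 TPM at day 3 and 11578 to 18815 TPM at day 6. Of 3 genes of oral or oesophageal epithelium, where Sprr3 is also known, 2 were tested and 1 was lower. Their sums were 2.13 to 5.14 TPM at day 3 and 0.694 to 1.96 TPM at day 6. In CAP wounds the same genes summed to 3.64 to 5.37 TPM at day 3 and 3.996 to 5.49 TPM at day 6. Of the 2 tested, 0 were lower between days there, and 1 was higher in CAP than in sham at day 6. Sprr3 had a mean of 0.0441 TPM in CAP wounds of day 6. The part of wound-edge, oral or oesophageal cells in the Sprr results was not tested.

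In CAP-treated wounds 19 members were higher and 3 were lower at day 6 than at day 3, of 47 tested, against 1.27% and 1.52% of all genes tested. The 19 were again 13 of 14 Lce1 genes with Lce6a, Flg, Hrnr, Lor, Ivl and Kprp. Flg had 759, 534 and 465 TPM at day 3 and rose by 1.91 ± 0.26 on the log2 scale (limma adjusted p = 0.168). Lce6a had 64.1, 48.97 and 46.4 TPM at day 3 and rose by 1.57 ± 0.26. The Lce1 median was 1.24. Without CAP replicate 2 of day 6, 6 members were higher (Lor, Flg, Hrnr, Lce6a, Lce1e and Lce1f), and the number lower was 10 without CAP replicate 1 of day 6 and 8 without CAP replicate 3 of day 3.

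The members lower at day 6 in CAP wounds were Sprr1a, Sprr2k and Lce3a. Sprr1a had 2593, 3562 and 2063 TPM at day 3, all above the CAP values of day 6 (log2 difference −1.09 ± 0.26). Sprr2k had 22.3, 91.4 and 13.1 TPM at day 3 and 9.46, 2.76 and 7.49 TPM at day 6, without overlap (−2.34 ± 0.77). Lce3a had 21.2, 36.8 and 13.7 TPM at day 3, and the lowest of these lay just above the highest CAP value of day 6 (−1.44 ± 0.44). Sprr3 had 3.99, 5.93 and 2.07 TPM at day 3 in CAP, and was not tested since its mean was under 0.3 TPM at day 6. Of the 8 wound-edge genes 4 were lower at day 6 in CAP wounds (sums of 19748 to 40647 TPM at day 3 and 7511 to 26109 TPM at day 6), as were 3 of 7 neutrophil markers tested, and their part in the Sprr and Lce3 results was not tested.

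The last comparison tested whether the CAP effect itself differed between the days. Of 49 members, 18 had a higher and 3 a lower effect at day 6 than at day 3 past the threshold, against 2.18% and 2.73% of all genes tested. None had an adjusted p under 0.05 by limma, the lowest being 0.428, while 22 had an unadjusted p under 0.05, as did 11.3% of all genes tested. The difference of effects was 2.42 ± 0.65 for Flg, 1.31 ± 0.34 for Hrnr, 1.51 ± 0.43 for Lce6a and 1.29 ± 0.47 for Lor, and its median over the Lce1 genes was 1.23. Lce3a, Tchh and Sprr3 had the lower effects. Sprr3 was tested here only because the filter asked for 0.3 TPM in 1 of the 4 groups, and its mean was 0.0441 TPM in CAP at day 6. It did not pass with 1 TPM added and was not tested with the filter in all 4 groups. Without CAP replicate 2 of day 6 the numbers of higher and lower effects were 7 and 0, and the 7 were Flg, Hrnr, Lce6a, Lce1e, Lce1f, Lce1h and Lce1i. The number of lower effects was also 0 without CAP replicate 2 of day 3. It was 1 without sham replicate 2 or 3 of day 3, sham replicate 2 of day 6 or CAP replicate 3 of day 6. It was 5 without CAP replicate 3 of day 3 or CAP replicate 1 of day 6, 6 without sham replicate 1 of day 3 and 7 without sham replicate 3 of day 6. Of the 17 hair follicle genes tested in this comparison 0 passed, and 0 had an unadjusted p under 0.05 by limma. Of these 14 were negative, with a median of −1.59, but the filter asked for 0.3 TPM in only 1 of the 4 groups. In sham at day 6, 17 genes of the list reached it, against 9 in sham and 10 in CAP at day 3 and 5 in CAP at day 6. Genes that entered only through sham at day 6 lean to a negative value by that selection, so no conclusion is drawn from the sign. Of the 8 neutrophil markers 2 were lower and 8 were negative, with a median of −1.39. All 8 reached 0.3 TPM in CAP at day 3 and in sham at day 6. Only 7 did so in sham at day 3 and 7 in CAP at day 6. The same selection can thus lean their sign to the negative, and no conclusion is drawn from it.

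Other genes of late epidermal differentiation lying outside the complex were counted for comparison. Of 32 such genes, 11 were higher and 0 were lower in CAP wounds at day 6, and all 32 had a positive log2 difference, with a median of 0.79, against −0.12 over all genes tested. Serpinb12, a serpin of the upper epidermis, had 33.9 TPM in sham and 113 TPM in CAP on average (1.69 ± 0.21). Krt1 and Krt10, the keratin pair of the suprabasal layers, rose by 1.86 ± 0.37 and 1.62 ± 0.38 on the log2 scale. At day 3, 0 of the 32 passed and 0 had an unadjusted p under 0.05 by limma. Of 16 regulators of late differentiation 0 passed at day 6, with a median of 0.35, and Klf4, a factor needed for barrier formation, had a log2 difference of 0.89 ± 0.21. In bulk tissue, fewer or more cells of a type and less or more RNA per cell cannot be told apart.

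Lor, Flg and the Lce1 genes were also set against Krt10. The ratio of Lor to Krt10 was 0.180, 0.257 and 0.222 in the sham libraries of day 6 and 0.216, 0.174 and 0.187 in the CAP libraries. The groups overlapped, as they did at day 3, where the means were 0.203 in sham and 0.230 in CAP. The ratio of the Lce1 sum to Krt10 was 0.395 ± 0.0785 in sham and 0.292 ± 0.0413 in CAP at day 6 (SD, n = 3), again with overlap. For Flg the ratio was 0.0361, 0.0775 and 0.0703 in sham and 0.114, 0.0663 and 0.0969 in CAP, also with overlap. Krt10 relative to the basal keratin Krt14 was 0.932, 0.862 and 1.13 in sham and 1.24, 3.86 and 2.52 in CAP, without overlap, and CAP replicate 2 was again the highest. The part of the share of suprabasal keratinocytes in the results of Lor, Flg and the Lce1 genes was not tested.

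**Figure D4:**
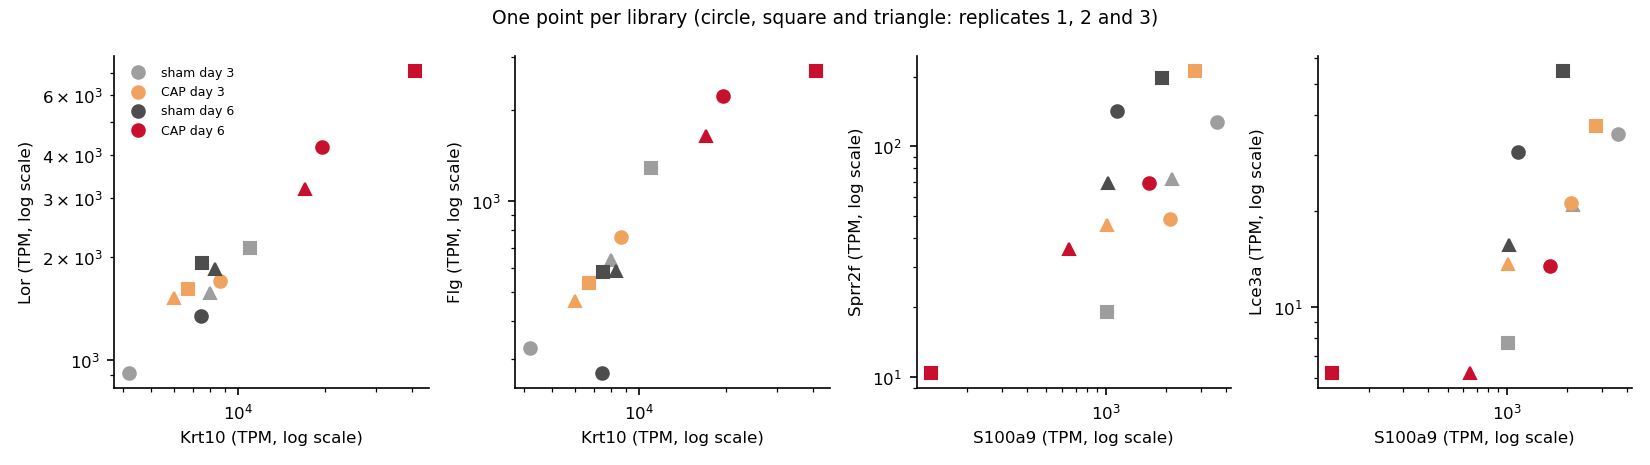
Level of Lor and Flg against Krt10, and of Sprr2f and Lce3a against S100a9, in each of the 12 libraries (TPM, log axes). Colour gives the group and the symbol the replicate. Lor and Flg lie highest in the 3 CAP libraries of day 6, where Krt10 is also highest, and within each group Sprr2f and Lce3a are highest in the library with the highest S100a9 value.

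Markers of other cells were counted in the same comparison. Of 12 genes of basal keratinocytes 1 was higher and 0 lower in CAP wounds at day 6 (median 0.11), and of 8 genes of wound-edge keratinocytes 0 passed (median −0.23). The 8 neutrophil markers summed to between 1770 and 3321 TPM in sham and between 281 and 2675 TPM in CAP, and of 7 tested 0 passed and 7 were negative, with a median of −1.29. Most of that sum was S100a8 and S100a9, genes of the same complex that keratinocytes also express, and without them it was 190, 249 and 163 TPM in sham and 74.2, 52.1 and 236 TPM in CAP, with CAP replicate 3 rather than replicate 1 the highest of its group. All 8 macrophage markers were negative (median −0.55, sums of 7573 to 11006 TPM in sham and 4530 to 9927 TPM in CAP), and 0 passed. Of 6 endothelial markers 3 were lower, with sums of 233 to 320 TPM in sham and 75.3 to 197 TPM in CAP. Of 7 fibroblast genes 0 passed (16777 to 22802 TPM in CAP against 20770 to 27471 TPM in sham), and of 8 skeletal muscle genes 1 was lower. For these lists no gene had an adjusted p under 0.05 by limma. The part of these cells in the results of the members was not tested.

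S100 genes lie beside the members in the same complex. Of 11 tested, 0 passed at day 6, with a median log2 difference of −0.17. Within groups, 9 members had their 3 libraries in the same order as the summed neutrophil markers in all 4 groups, namely Lce3a, Lce3b and 7 Sprr2 genes (Sprr2b, Sprr2d, Sprr2e, Sprr2f, Sprr2g, Sprr2i and Sprr2j-ps), or 18.4% of the members against 0.178% of all 20267 genes with 0.3 TPM in a group. S100a8 and S100a9, which wounded keratinocytes also express, were then taken out of that sum. In the order of the sum left, 0 of 49 members matched, against 0.148% of all 20267 genes. That 0 is near the share of all genes, so no conclusion is drawn from it. S100a9 itself had 1135, 1912 and 1015 TPM in sham and 1639, 131 and 652 TPM in CAP at day 6, the order of Sprr2f in both groups. This pattern was looked for after the values had been seen.

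Sequence shared between members limits how far single genes can be told apart. Between 0.926% and 58.8% of the 31-base stretches of the Lce1 genes also occur in another gene, with the highest share for Lce1i and the lowest for Lce1m, and between 26.7% and 60.3% of those of the Lce3 genes. The sequences of Lor, Kprp, Crct1, Hrnr, Tchh, Sprr1a, Sprr1b, Sprr3 and Lce6a shared none, so their values do not depend on how reads were divided among relatives. Flg shared 0.112% of its stretches and overlaps Rplp0-ps1 on the same strand. Hrnr, Rptn and Tchh overlap a gene on the other strand, Gm37245, and no source used here says whether the counting used strand.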

How the data were processed

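RNA of wounds was sequenced by the authors as paired-end libraries, trimmed with Trimmomatic 0.36, assigned to mm10 and quantified with StringTie. For the aligner and the use of strand, nothing is stated in the methods or labels (not given in the sources used here). The authors deposited 1 table of TPM values per library for 55487 genes, in which 0.0001 stands for 0. TPM keeps no depth, so depth is unknown and precision rests on 3 libraries per group. Gene coordinates were those of GENCODE M21.

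Values were compared on log2(TPM + 0.1) with limma 3.58.1 in R 4.3.3 (trend, not robust) over all genes whose mean reached 0.3 TPM in both groups, or in 1 or more of the 4 groups for the difference of effects, with Benjamini-Hochberg adjustment over all genes tested. The fit was tested on simulated data. The threshold was an unadjusted p under 0.05 and 2-fold, as in the study. For a single gene, an exact permutation test of 3 against 3 cannot give a p under 0.1, so none is printed. A fold understates the change of low genes.

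Values in every library are given for the 3 most abundant members of each family and up to 5 with the smallest p per comparison and direction. Members and gene lists were chosen with earlier results of these data known. Promoters were aligned with Biopython 1.88. Figures used matplotlib 3.10.9 in Python 3.11.15.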

Additional observations from a re-analysis of the deposited data

Results flagged for a closer look

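For 21 members the CAP effect at day 6 differed from that at day 3 by a test of the difference itself (limma, unadjusted p under 0.05 and 2-fold), and 0 of them had an adjusted p under 0.05. All values here are the day 6 effect minus the day 3 effect on the log2 scale. For the S100-fused genes Flg and Hrnr the difference was 2.424 and 1.31. It was 1.29 and 1.208 for the single genes Lor and Kprp, and 1.507 for Lce6a. Of the Lce1 genes, Lce1h had 1.622, Lce1f 1.524, Lce1e 1.495, Lce1i 1.373 and Lce1g 1.307. Lce1j had 1.254, Lce1b 1.24, Lce1k 1.226, Lce1a1 1.197 and Lce1c 1.194. Lce1d had 1.102, Lce1a2 1.013 and Lce1l 1.002, the last just past 2-fold. The difference was negative for Lce3a (−2.184), Sprr3 (−1.84) and Tchh (−1.676), and Sprr3 did not pass with 1 TPM added. With 3 libraries per group, single libraries were not tested as far from their group.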

How the results depend on the processing

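Precision rests on 3 libraries per group and depth is unknown, so low genes such as Sprr3 are the least certain. When 1 library was left out, the number of members higher or lower in CAP at day 3 stayed at 0. At day 6 the number higher ran from 10 to 22 and the number lower from 2 to 11. Between days in sham wounds these ran from 0 to 3 and from 2 to 6, and in CAP-treated wounds from 6 to 20 and from 2 to 10. For the difference of effects they ran from 7 to 21 and from 0 to 7. A joint fit of all 12 libraries gave 4 members lower at day 6. In these counts the cause was not tested. Over all genes at day 6, 268 were higher and 429 lower, against 403 and 248 with quantile normalization and 157 and 228 with 1 TPM added. At day 3, 78 were higher and 212 lower, against 105 and 158 with quantile normalization, 43 and 111 with 1 TPM added, and 151 and 323 when 0.3 TPM was asked in only 1 of the 4 groups. With 1 TPM added, 392 and 296 became 234 and 171 between days in sham, 231 and 276 became 144 and 155 in CAP (352 and 396 with the filter in 1 group), and 441 and 553 became 246 and 334 for the difference of effects. No difference of a member past the threshold changed sign under the alternatives run.

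For CAP against sham at day 6 the deviations of libraries with the same replicate number correlated at 0.0298, 0.102 and 0.0807, each the highest for its library, but not all above the 0.1 asked of a pairing. In the other comparisons at least 1 such correlation was under 0.1 too, so the numbers were not taken to pair the samples. With the number as a block, 5 members were lower at day 6 in CAP-treated wounds, against 3 without it, and the other counts moved by less than 1.5 times.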
